A study of Mus musculus with 4 samples.

Results

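Neuronal tubulins and microtubule-associated proteins are described here by 10 genes of the mouse: the beta-tubulin genes Tubb3 and Tubb2b, the microtubule-associated protein (MAP) genes Map1a, Map1b, Map2 and Mapt, the doublecortin family genes Dcx and Dclk1, and the stathmin genes Stmn1 and Stmn3. The genes were given by name with no threshold on their values, though with earlier results of these data known. For each, features of the array whose annotation gave exactly 1 gene symbol were taken, and where a gene had several the brightest on average was kept. All 10 genes were measured, by 12 such features, among 18920 genes and 22431 features in all. EGFP-positive cells were compared with EGFP-negative cells, sorted by fluorescence, both from retinas of mice of the BAC-Crx-EGFP genotype on a 129Sv/Ev background at embryonic day E17.5, with 2 samples of each fraction on 1 array per sample. Both fractions carried the transgene, a bacterial artificial chromosome in which regulatory DNA of Crx, a transcription factor gene of photoreceptors and their precursors, drives enhanced green fluorescent protein. The positive fraction was therefore taken to stand for cells with active Crx regulatory DNA. The negative fraction was taken to stand for the other retinal cells, dividing progenitors and early neurons alike. How cleanly the sort divided them was not tested. The study asked how the expression profile of the positive cells differs from that of the negative cells. Nothing in the labels ties a replicate to its own animal, litter or sort, and the p-values therefore reflect no more than the spread among these arrays, possibly a technical one.

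Microtubules are hollow polymers of alpha- and beta-tubulin that carry cargo and give neurites their shape. Newly born neurons switch on particular tubulin isotypes together with proteins that stabilise or bundle the polymer (MAP1B, MAP2, tau, doublecortin) or hold free tubulin dimers and favour disassembly (the stathmins). In the embryonic retina ganglion, amacrine and horizontal cells and photoreceptor precursors leave the cell cycle and extend processes, whereas progenitors use their microtubules for the mitotic spindle. Tubb3 and Dcx are therefore widely used as markers of young neurons, and Stmn1 is also abundant in dividing cells.

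Over all features the arrays of a fraction correlated at Spearman's rho of 0.985 (positive) and 0.987 (negative), and arrays of different fractions at 0.954 to 0.980. None of the 10 genes was called different between the fractions by limma at an adjusted p under 0.05, against 0.963% of all features. At an unadjusted p under 0.05, 4 of the 10 differed, against 19.2% of all features. At that level Map2, Tubb3 and Map1b were higher in positive cells, as were 9.34% of all features, and Map1a was lower, as were 9.83%. In 8 of the 10 genes the mean was higher in the positive fraction, as in 47.8% of all features, and in 2 it was lower, as in 52.2%. The median log2 difference (positive minus negative) was 0.42 over the 10 genes and -0.01 over all features. The arrays of the fractions did not overlap in 5 of the 10 genes, and in 47.6% of all features. The 2 positive arrays lay entirely above the 2 negative arrays in 4 genes (22.3% of all features did so) and entirely below them in 1 gene (25.3%). In sorted bulk samples fewer cells of a type and less RNA per cell cannot be told apart. With 2 arrays per fraction, the exact permutation test of a single gene cannot give a two-sided p under 0.333.

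**Figure D1:**
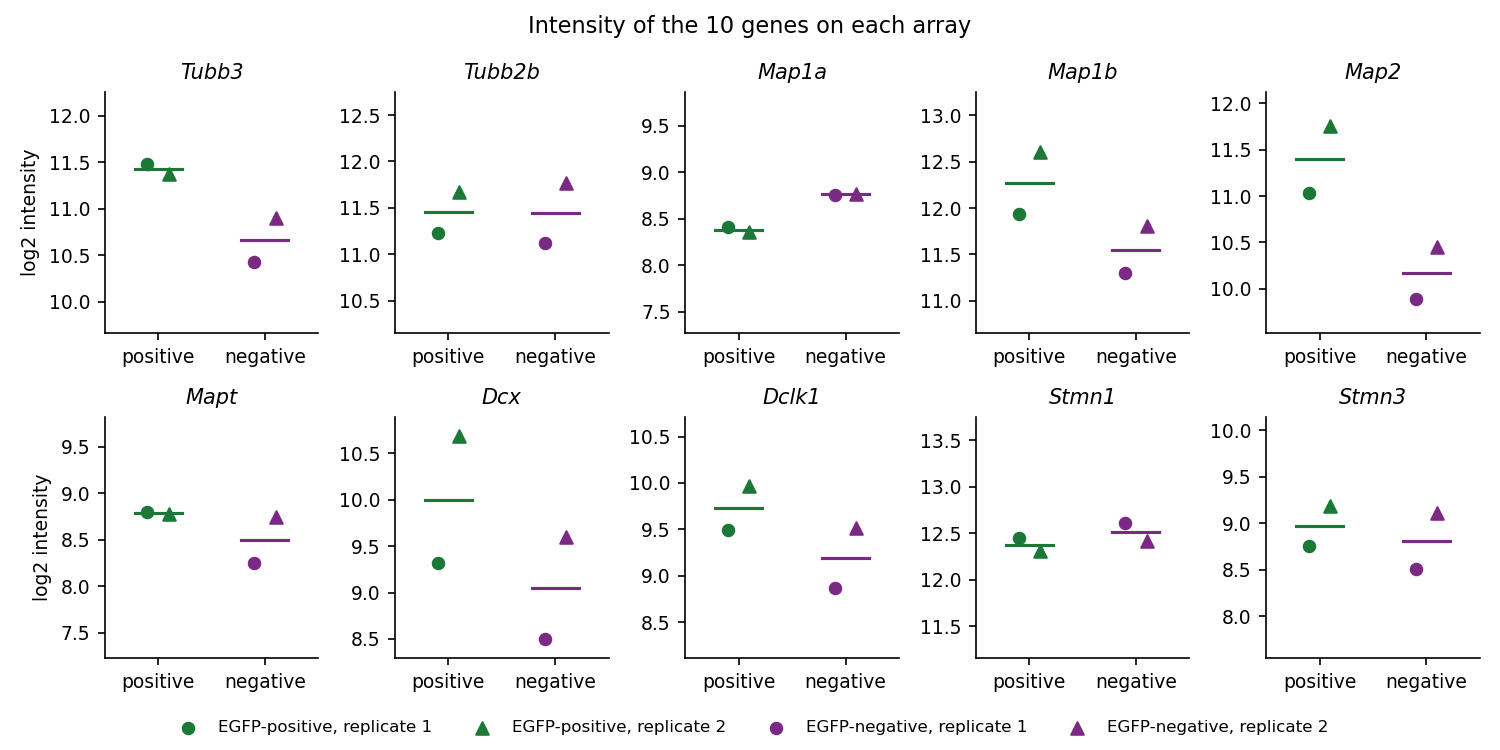
Log2 intensity of the 10 genes on each array, EGFP-positive (green) at the left and EGFP-negative (purple) at the right of each panel; circles are replicate 1, triangles replicate 2 and lines the means of 2 arrays. Each panel spans the same range of log2 units around its own gene, and the arrays of the fractions do not overlap in Tubb3, Map1a, Map1b, Map2 and Mapt.

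The DNA before the start of the 4 genes with the largest positive differences (Map2, Dcx, Tubb3 and Map1b) is shown because these genes belong to different families and were all higher on average in the positive fraction. RefSeq windows of GRCm38.p6, each from 250 bases before to 50 bases after a transcript's start, were at hand for 7 of the 10 genes in 9 windows. Tubb2b, Mapt and Stmn1 were not matched. Printed below is only the part of each window that lies outside the gene, read 5′ to 3′ on the gene's strand, in lower case with any E-box (CANNTG, a motif bound by proneural bHLH factors) in capitals. For Map2 this is chr1:66175079-66175201 on the plus strand, for Dcx chrX:143933397-143933469 on the minus strand, for Tubb3 chr8:123411303-123411552 on the plus strand and for Map1b chr13:99516603-99516852 on the minus strand.
Map2: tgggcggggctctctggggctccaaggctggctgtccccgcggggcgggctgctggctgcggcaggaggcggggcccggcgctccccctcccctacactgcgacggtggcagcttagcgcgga
Dcx: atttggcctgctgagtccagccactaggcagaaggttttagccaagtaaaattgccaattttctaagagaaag
Tubb3: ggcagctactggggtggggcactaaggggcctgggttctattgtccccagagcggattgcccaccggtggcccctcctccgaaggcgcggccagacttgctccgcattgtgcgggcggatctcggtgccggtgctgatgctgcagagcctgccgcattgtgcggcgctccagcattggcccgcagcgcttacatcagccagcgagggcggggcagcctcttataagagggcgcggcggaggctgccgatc
Map1b: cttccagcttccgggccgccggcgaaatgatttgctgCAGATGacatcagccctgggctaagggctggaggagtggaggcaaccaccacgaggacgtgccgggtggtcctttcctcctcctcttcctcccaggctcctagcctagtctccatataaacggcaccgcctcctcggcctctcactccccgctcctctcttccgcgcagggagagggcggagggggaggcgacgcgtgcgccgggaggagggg

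Motifs were counted on both strands of the whole 300-base windows, and none of the motifs searched contains another. An E-box was found 1 time each in the Map1b and Stmn3 windows, 2 times in that of Map1a, 2 times and 1 time in the Dclk1 windows, and in no window of Map2, Tubb3 and Dcx. At least 1 was held by 72.3% of 32851 RefSeq windows of this length. TAATCC, the core read by homeodomain proteins such as CRX and OTX2, was found in 1 of the 9 windows, that of Map1b, where it lay in the bases after the printed stretch, against 7.06% of all windows. The GC box GGGCGG was found 5 times for Map2, 4 times for Map1a and 2 times each for Tubb3 and Map1b, and 35.7% of all windows held it. The TATA motif TATAAA was found 1 time in the Map1b window and 1 time in each of the 2 overlapping Dcx windows, against 13.6% of all windows. The windows of Map2 and Tubb3 were 77.7% and 67.3% G or C, and the Dcx windows 43.0% and 44.7%. The letters describe these windows and say nothing of whether a factor bound there.

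Of the beta-tubulin genes, Tubb3 had non-overlapping arrays but was not called, and Tubb2b had nearly equal means; the contrast between them was not tested. Tubb3 (Entrez gene 22152), the neuron-specific class III isotype, read 2870.5 and 2650.3 in positive replicates 1 and 2, against 1378.3 and 1905.2 in negative replicates 1 and 2, as normalised linear intensity. Both positive arrays lay above both negative ones, and the positive arrays stood closer together. The log2 difference was 0.77 ± 0.18 (SE, n = 2 per fraction), or 1.70-fold, with limma's adjusted p at 0.112 and a 95% interval of 0.32 to 1.21. This difference exceeded that of 97.9% of features.

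Tubb2b, an isotype abundant in migrating young neurons, read 2407.2 and 3269.3 in positive cells and 2233.6 and 3494.8 in negative cells. Replicate 2 was the higher array in each fraction, and the fractions overlapped. The log2 difference was 0.01 ± 0.26 (adjusted p = 0.996), with an interval from -0.65 to 0.66. The difference turned to -0.21 without positive replicate 2 and to -0.32 without negative replicate 1. Tubb2a and Tubb2b are near-identical genes, and the extent to which their array features share signal was not tested.

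Map2 had the largest difference of the 10 genes. It encodes a MAP of dendrites and cell bodies that bundles microtubules, and read 2096.5 and 3452.5 in positive cells against 946.9 and 1400.2 in negative cells. Every positive array exceeded every negative array, by 0.58 to 1.87 log2 units. The mean log2 difference was 1.22 ± 0.30, or 2.34-fold (adjusted p = 0.122), with an interval of 0.47 to 1.98, and 99.2% of features had a smaller one. Without positive replicate 1 the difference was 1.58 and limma's adjusted p was 0.0259, in a fit that called 6.37% of all features. Mapt, its relative that encodes the axonal protein tau, read 446.1 and 438.1 against 303.8 and 429.4. The positive arrays lay above the negative ones by as little as 0.03 log2 units, and the mean difference was 0.29 ± 0.18 (adjusted p = 0.486). Dropping negative replicate 1 gave 0.04, and dropping negative replicate 2 gave 0.54.

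The MAP1 genes had differences of opposite sign. Map1b, which encodes a MAP of growing axons that appears early in neuronal life, read 3919.3 and 6225.9 in positive cells and 2512.4 and 3591.0 in negative cells. The fractions did not overlap, but the replicates lay 0.67 and 0.52 log2 units apart within them. The log2 difference was 0.72 ± 0.28 (adjusted p = 0.252). With positive replicate 2 left out the difference was 0.38, and with negative replicate 1 left out it was 0.46. Map1a, whose product is the MAP1 protein of mature neurons, read 339.9 and 328.5 in positive cells and 433.1 and 436.9 in negative cells. It had the smallest spread of the 10 genes in the negative fraction (SD 0.01, log2) and was the gene whose arrays all lay lower in the positive fraction. Its log2 difference was -0.38 ± 0.10 (adjusted p = 0.133), with an interval of -0.63 to -0.13. The difference between Map1b and Map1a was not tested.

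**Figure D2:**
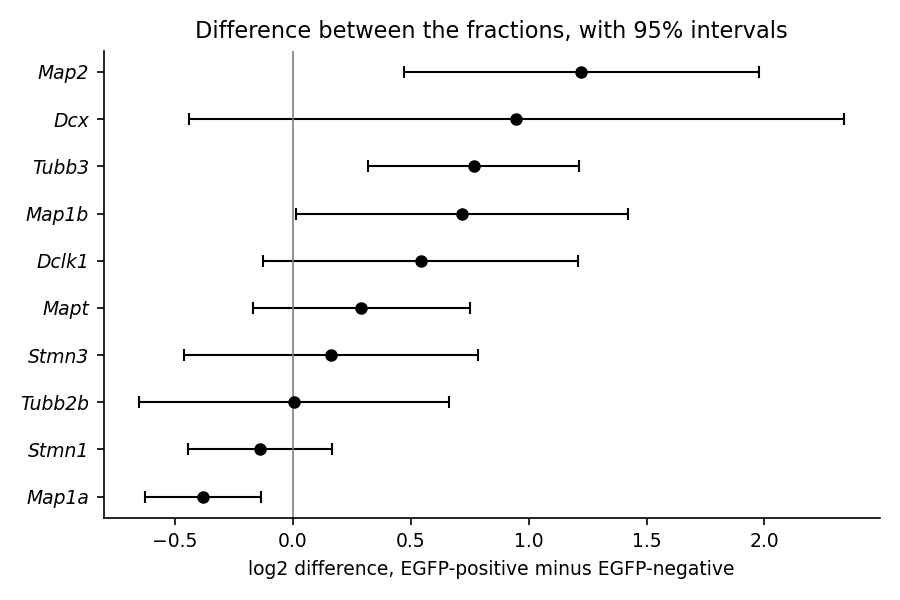
Log2 difference, EGFP-positive minus EGFP-negative, for each of the 10 genes; points are the differences of the means (2 arrays per fraction) and bars limma's 95% intervals. The intervals of Map2, Tubb3 and Map1b lie above 0 and that of Map1a below it before adjustment for multiple testing, and the bar of Dcx is the widest.

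Among the 10 genes, Dcx had the second largest difference and the largest error. Dcx, an X-linked gene whose product bundles microtubules in migrating neurons, read 636.0 and 1645.0 in positive cells and 362.7 and 774.1 in negative cells. Positive replicate 1 lay below negative replicate 2, so the fractions overlapped. The log2 difference was 0.95 ± 0.55 (adjusted p = 0.446), with an interval from -0.44 to 2.34. It ranged from 0.26 without positive replicate 2 to 1.63 without positive replicate 1. Dclk1, which joins doublecortin domains to a kinase domain, read 723.1 and 997.3 against 465.8 and 730.0. The arrays overlapped narrowly, and the difference was 0.54 ± 0.26 (adjusted p = 0.359). Leaving out negative replicate 1 gave 0.22, leaving out positive replicate 2 gave 0.31, and leaving out negative replicate 2 gave 0.87.

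The stathmin genes showed small differences. Stmn1, whose product sequesters tubulin dimers in dividing cells and young neurons, read 5573.4 and 5055.3 in positive cells and 6233.0 and 5479.1 in negative cells, a log2 difference of -0.14 ± 0.12 (adjusted p = 0.642). It lay between -0.23 and -0.05 when 1 array was left out, and was -0.02 after a further quantile normalisation. A second Stmn1 feature read within 1.35% of the first on every array and differed by -0.15 ± 0.13. Each of the features is annotated with 5 transcripts, and the second was not taken as an independent measurement. Stmn3, a neuronal stathmin anchored to membranes, read 433.5 and 581.7 against 364.3 and 552.8, with a difference of 0.16 ± 0.25 (adjusted p = 0.823) that turned to -0.05 without positive replicate 2 and to -0.14 without negative replicate 1. A second Stmn3 feature, annotated with 1 transcript, read only 60.4 to 77.7 on the 4 arrays, under the array medians of 218.4 to 222.9. It differed by 0.16 ± 0.14.

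The replicates differed in these genes too, with a median of 0.43 log2 units (replicate 2 minus replicate 1) among positive and 0.54 among negative cells, beside 0.42 between the fractions. Replicate 2 was higher than replicate 1 in both fractions for 6 of the 10 genes (Tubb2b, Map1b, Map2, Dcx, Dclk1 and Stmn3), as in 29% of all features. Dcx had the largest such difference, with 1.37 log2 units between the positive and 1.09 between the negative replicates, above 99.9% and 99.7% of features. The other 5 of these genes differed by 0.42 to 0.72 between the positive and by 0.52 to 0.65 between the negative replicates. Stmn1 was lower in replicate 2 of both fractions, as were 32.4% of all features, with differences of -0.14 and -0.19. Tubb3 and Mapt were higher in replicate 2 of the negative but not of the positive fraction, by 0.47 and 0.50, and their positive replicates differed by -0.12 and -0.03.

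Markers of retinal ganglion cells, the first retinal neurons to be born, moved with the replicates too. Of 17 measured markers 15 were higher in replicate 2 of both fractions, with a median replicate difference of 0.74 among positive and 1.14 among negative cells, against 0.43 and 0.54 for the 10 tubulin and MAP genes. Isl1, a LIM homeodomain factor, read 502.3 and 1224.1 in positive cells and 317.7 and 1075.6 in negative cells. The summed intensity of the 17 markers was 6608.6 and 11911.0 in positive replicates 1 and 2, and 5819.7 and 12964.5 in negative replicates 1 and 2. Between the fractions 10 of the 17 were higher and 7 lower in positive cells, with a median log2 difference of 0.14 and none called. At an unadjusted p under 0.05, 2 of them were higher, against 9.34% of all features. First by size was Isl2, 1.19 ± 0.34 (adjusted p = 0.156). No feature of the file was at 0. The part of ganglion cells in the values of the 10 genes was not tested.

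**Figure D3:**
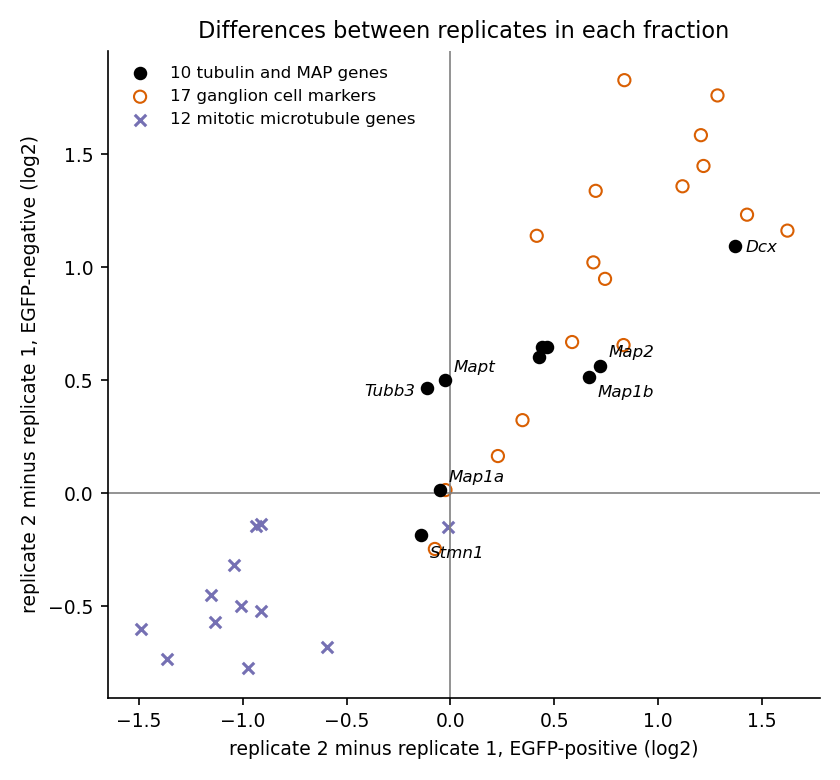
Log2 difference of replicate 2 minus replicate 1 in the EGFP-positive fraction (horizontal) and in the EGFP-negative fraction (vertical), 1 point per gene. Dcx lies among the ganglion cell markers at the upper right, Tubb3 and Mapt differ in the negative fraction by about 0.5 and hardly in the positive one, and the mitotic microtubule genes lie at the lower left.

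Markers of other cell types were set beside these values. For the counts that follow, 0.82% of all features were called higher and 0.143% lower. At an unadjusted p under 0.05, 9.34% of all features were higher and 9.83% lower. All 12 measured amacrine cell markers were higher in positive cells, with a median of 0.45 and 2 called, led by the transcription factor gene Tfap2a (1.12 ± 0.14, adjusted p = 0.0429). In 9 of them the positive arrays lay entirely above the negative ones, as in 22.3% of all features. Chat of that list read 87.1 to 103.6, under the array medians of 218.4 to 222.9, and differed by 0.01 ± 0.12. Dlx1, with the largest replicate differences of that list (0.83 among positive and 0.95 among negative cells), differed by 0.01 ± 0.40 between the fractions. Of the 12 amacrine markers 5 were higher and 5 lower in replicate 2 of both fractions. Their summed intensity was 7644.6 and 8332.2 in positive cells and 5315.2 and 5589.1 in negative cells. Of 7 horizontal cell markers 6 were higher, with a median of 0.23 and none called (3 higher ones passed an unadjusted p of 0.05). Lhx1 and Calb1 of that list read 55.6 to 181.4, under the array medians. The horizontal cell factor gene Onecut1 read 456.0 and 1003.0 against 236.0 and 372.6, and was higher in replicate 2 of both fractions. Its relative Onecut2 had the largest difference of the list (1.42 ± 0.53, adjusted p = 0.241). Progenitor markers were lower in 12 of 15 cases, with a median of -0.83 and a summed intensity of 29839.0 and 22039.1 in positive cells against 44274.3 and 42811.4 in negative cells. The called members of that list were Sox2, a transcription factor gene of progenitors (-1.36 ± 0.10, adjusted p = 0.0119), and, in the opposite direction, the fatty acid binding protein gene Fabp7 (2.76 ± 0.11, adjusted p = 0.00576). Of the 15 progenitor markers 11 were lower in replicate 2 of both fractions and 2 were higher. The median replicate difference of the list was -0.63 among positive and -0.15 among negative cells. Sfrp2, a secreted modulator of Wnt signalling, was among the higher ones, by 0.67 among positive and 1.08 among negative cells. The photoreceptor markers, by which enrichment by the sort can be judged, were higher in all 13 cases, with a median of 2.61 and 8 called. Crx read 3628.7 and 4758.8 against 292.2 and 370.1. Nrl, Arr3 and Rcvrn, which were not called, read 60.0 to 185.9, under the array medians. Rbp3, the retinoid-binding protein gene of photoreceptors, had the largest difference (4.37 ± 0.19, adjusted p = 0.00576). The 8 bipolar markers had a median of -0.01, with 3 higher and 5 lower, and 1 called: the bHLH factor gene Neurod4, with 3872.2 and 3878.9 in positive cells and 630.7 and 643.8 in negative cells (2.60 ± 0.10, adjusted p = 0.00576). Isl1, named above, is also in that list. Vsx1, Cabp5, Grm6, Trpm1 and Scgn of the list read 59.3 to 209.4, under the array medians of 218.4 to 222.9. Prkca read 206.9 to 368.0. The 8 glial markers had a median of -0.11, with 3 higher and 5 lower, none called and 2 lower at an unadjusted p under 0.05. The glutamate transporter gene Slc1a3 had the largest difference of that list, -1.27 ± 0.34 (adjusted p = 0.143), and the retinoid-binding protein gene Rlbp1 was lower in replicate 2 by 0.99 among positive and 1.32 among negative cells. Gfap, Aqp4, Pax2, S100b and Aldh1l1 of the glial list read 80.1 to 161.1, again under the array medians. The 8 endothelial and microglial markers had a median of -0.08, with 4 higher and 4 lower, and none passed an unadjusted p of 0.05. Kdr, a receptor of vascular growth factor, led them with 3171.2 and 1107.0 in positive and 4888.5 and 2883.9 in negative cells. All other markers of that list, Pecam1, Cdh5 and Tie1 among them, read 66.7 to 195.7, also under the array medians. The part of each of these cell types in the values of the 10 genes was not tested.

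Of 13 other tubulin genes measured, none was called by limma, and 6 were higher and 7 lower in positive cells. At an unadjusted p under 0.05, 1 was higher and 2 lower, against 9.34% and 9.83% of all features. The alpha-tubulin gene Tuba1a, abundant in neurons, read 11942.3 and 12187.1 in positive cells against 8487.1 and 9850.8 in negative cells (0.40 ± 0.12, adjusted p = 0.162). Tubb4a (0.56 ± 0.27) and Tubb2a (0.46 ± 0.28) were higher in replicate 2 of both fractions, as Tubb2b was. Tubb5, the isotype of most dividing cells, differed by -0.18 ± 0.10, and Tubb6 by -0.62 ± 0.26, the largest difference among these genes (adjusted p = 0.280). The neuronal stathmin genes Stmn2 and Stmn4 differed by 0.48 ± 0.34 and 0.06 ± 0.27.

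Of 5 other doublecortin family genes measured 4 were higher, with a median of 0.09 and none called. At an unadjusted p under 0.05, 2 were higher, against 9.34% of all features. Dclk2, a further doublecortin-like kinase gene, differed by 0.09 ± 0.11. Rp1, a doublecortin-domain protein of the photoreceptor axoneme, read 363.4 and 171.2 in positive and 63.7 and 67.3 in negative cells (1.93 ± 0.35, adjusted p = 0.0832). Its values other than positive replicate 1 lay under the array medians of 218.4 to 222.9. Rp1 was higher in positive replicate 1, the reverse of Dcx. All 5 genes of the collapsin response mediator (CRMP) family, tubulin-binding proteins of growing neurites, were higher in positive cells, with a median of 0.68 and none called. At an unadjusted p under 0.05, 4 of them were higher, against 9.34% of all features. Dpysl3 led them, with 4363.8 and 6071.7 in positive cells and 1482.7 and 2419.8 in negative cells (1.44 ± 0.28, adjusted p = 0.0870), and Crmp1 differed by 0.68 ± 0.25. Of 22 other structural MAP genes 16 were higher, with a median of 0.21 and none called. At an unadjusted p under 0.05, 7 were higher and 2 lower, against 9.34% and 9.83% of all features. First by size among these MAP genes was Map7d3 (-0.72 ± 0.11, adjusted p = 0.0663). It read 78.9 and 77.2 in positive and 121.2 and 136.5 in negative cells, under the array medians of 218.4 to 222.9. Map4, a MAP found in most cells, differed by 0.07 ± 0.11 and the stabilising protein gene Map6 by 0.37 ± 0.20.

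The called genes that were higher lay among proteins that follow growing microtubule ends (1 of 17) and kinases that act on MAPs (1 of 12). Of all features 0.82% were called higher. Mapre3, which encodes the neuronal end-binding protein EB3, read 529.7 and 532.2 in positive cells and 299.9 and 301.1 in negative cells (0.82 ± 0.10, limma adjusted p = 0.0408). Of the 17 plus-end genes 14 were higher, with a median of 0.46. At an unadjusted p under 0.05, 11 differed, all higher, against 9.34% of all features that were higher at that level. Brsk2, a kinase of neuronal polarity that phosphorylates tau, read 1433.4 and 1396.2 against 767.5 and 807.1 (0.85 ± 0.10, adjusted p = 0.0408). Of 12 such kinases and their activators 11 were higher, with a median of 0.32. At an unadjusted p under 0.05, 6 were higher and 1 lower, against 9.34% and 9.83% of all features. Both calls ended under an intensity trend in the variance model with all arrays kept, at an adjusted p of 0.0507 for Mapre3 and 0.0591 for Brsk2. With a trend and robust variances both stayed called, at limma's adjusted p of 0.0446 for Mapre3 and 0.0474 for Brsk2. Neither gene stayed called in all fits with 1 array left out. Those fits leave a single array in a fraction and cannot decide whether a call holds. The differences themselves stayed between 0.81 and 0.88 in these fits.

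The remaining microtubule lists were lower in positive cells or near 0. Of 12 mitotic microtubule genes 11 were lower, with a median of -1.04 and none called. At an unadjusted p under 0.05, 8 were lower, against 9.83% of all features. All 12 were lower in replicate 2 of both fractions. The spindle gene Spag5 read 918.4 and 418.8 against 1773.1 and 1195.3. Fignl1, a member of the fidgetin family placed here with the severing enzymes and known from DNA repair, was the called gene that was lower (-1.47 ± 0.13, adjusted p = 0.0200). Without negative replicate 1 its difference was -1.56, and without negative replicate 2 it was -1.38. It was not called in those fits, which leave a single negative array and cannot decide whether the call holds. The 7 severing enzymes had a median of -0.09. Genes of tubulin folding were lower in 12 of 14 cases, with a median of -0.14 and none called. At an unadjusted p under 0.05, 1 was lower (Cct8, -0.31 ± 0.11), against 9.83% of all features. Tubulin-modifying enzymes were higher in 14 of 21 cases, with a median of 0.05 and none called. At an unadjusted p under 0.05, 4 were higher, against 9.34% of all features. The tubulin acetylase gene Atat1 had the largest difference of these enzymes, 0.68 ± 0.21 (adjusted p = 0.175). Over all 130 other microtubule genes measured, 77 were higher and 53 lower, the median was 0.07, and 2 were called higher and 1 lower, against 0.82% and 0.143% of all features.

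**Figure D4:**
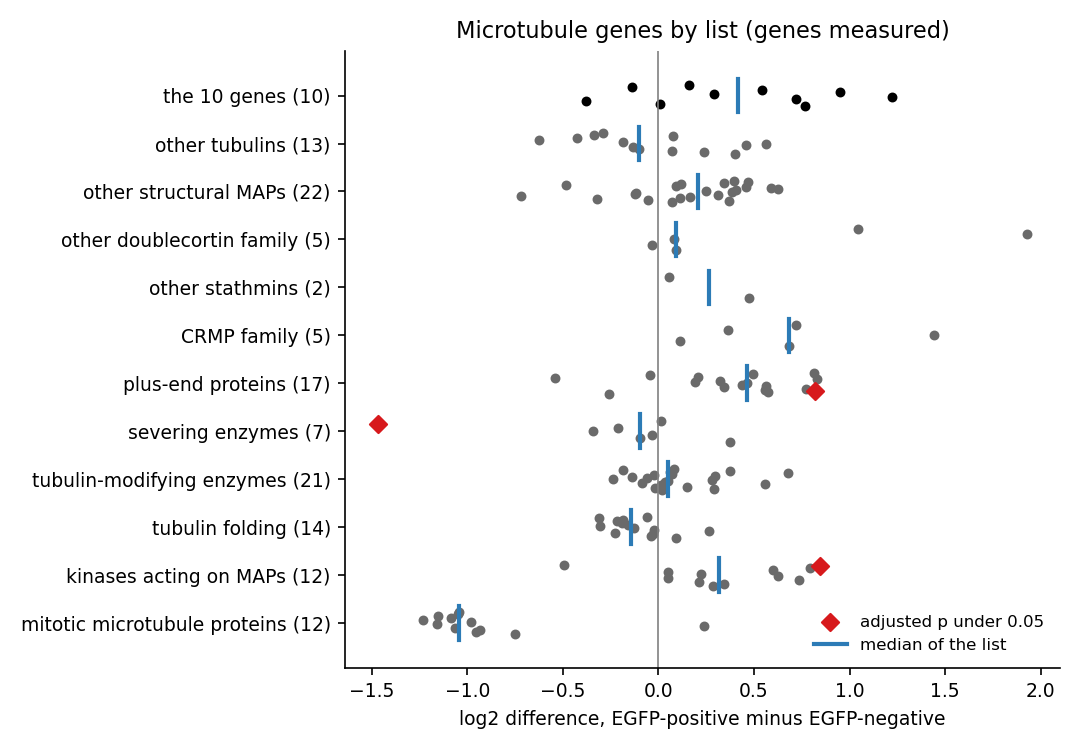
Log2 difference, EGFP-positive minus EGFP-negative, of each measured gene by list, with the number of genes in brackets; blue bars are list medians and red diamonds the genes with an adjusted p under 0.05 (Mapre3, Brsk2 and Fignl1). The CRMP family (0.68), the plus-end proteins (0.46) and the 10 genes (0.42) have the highest medians, and the mitotic genes (-1.04) the lowest.

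The genes most like Tubb3 were sought by the root mean square distance between log2 profiles over the 4 arrays, each centred on its own mean, among 4099 genes that varied at least 0.5 times as much. The nearest was the zinc finger gene Zfp558, at a distance of 0.03, against 0.42 for the variation of Tubb3 itself, with 683.9 and 646.5 in positive and 347.7 and 474.4 in negative cells. Elmod1, Npdc1, Pak3 and Chn1 followed, at 0.08 to 0.09. Their differences between the fractions were 0.62 to 0.80, and none was called. Of the other 9 genes, Mapt and Dclk1 lay nearest to Tubb3, both at 0.24, at ranks 653 and 671 among those genes, and Map1a and Dcx farthest, at 0.60 and 0.58.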

How the data were processed

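RNA from sorted cells was hybridised to Affymetrix whole-transcript arrays, starting from 100 ng of total RNA per the labels' protocols. The deposited values are intensity on a linear scale, 1 column per array. RMA and the build mm8 are named per the submitters' processing notes; its version and any filter were not given in the sources used here, and the linear scale was inferred from the range of 18.9 to 36625.2. Array medians were 218.4 to 222.9. Of 22431 features, 20176 had 1 gene symbol, 412 several and 1843 none.

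A linear model with moderated variances (limma 3.58.1 under R 4.3.3; lmFit, then eBayes with no trend) was fitted to the log2 values of all features, positive minus negative, with no term for the replicate number. Two-sided p-values received Benjamini-Hochberg adjustment across the whole table, and features under 0.05 were called. Errors are moderated standard errors (SE). The variance had 5.26 degrees of freedom, the median SE was 0.12, and the smallest difference called was 0.75. The number of arrays limits the precision, and no detection calls were used. The code was tested on simulated data.

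The members, the 11 lists of other microtubule genes and the 8 marker lists were chosen with earlier results of these data known. Genes named were the members, fixed near relatives, Crx, the called genes of each list or else its gene with the largest difference, from each marker list the genes with the largest difference between fractions and the largest same-direction replicate difference, and the 5 genes most like Tubb3. Of the named relatives, Tuba1b and Tubb4b had no feature of their own in the annotation used here, as had 7 other listed microtubule genes, and were not analysed. Several markers that read under the array medians were named too. The 8 marker lists cover ganglion, amacrine, horizontal, progenitor, photoreceptor, bipolar, glial, and endothelial and microglial cells. Promoter windows came from RefSeq, whose build differs from mm8. Alternatives varied the variance model, array scaling, log offset, filter, features per gene, replicate number as a block and the arrays used.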

Additional observations from a re-analysis of the deposited data

How the results depend on the processing

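Under the 12 alternatives, 8 of the 10 genes kept the sign of their difference. Tubb2b turned to -0.21 without positive replicate 2 and to -0.32 without negative replicate 1, and Stmn3 to -0.05 and -0.14 in the same fits. None of the 10 was called lower under any of them, and the median difference ranged from 0.13 to 0.70. The number of the 10 genes called higher was 0 to 1 when 1 array was left out, the 1 being Map2 without positive replicate 1. In such fits the lone array is assumed to vary like the arrays of the other fraction. The number was 0 under every other alternative except the replicate block.

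With the replicate block, 5 of the 10 genes were called higher by limma (Tubb3 at an adjusted p of 0.0309, Map1b 0.0132, Map2 0.00454, Dcx 0.00971 and Dclk1 0.0266). The fit also called 1377 features higher (6.14%) and 1500 lower (6.69%), against 184 and 32 without the block. Of the other microtubule genes it called 28 higher and 17 lower, against 2 and 1. Deviations of same-numbered arrays correlated at 0.48 over all features (Pearson's r across features, which are not independent). No label ties the numbers to a shared litter, batch or day, and there are only 2 pairs. Whether same-numbered arrays are paired is therefore not known, and the 5 calls depend on it.

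Leaving out 1 array moved Tubb2b between -0.32 and 0.33 and Stmn3 between -0.14 and 0.46. It gave 0 to 667 features higher and 0 to 762 lower, and 0 to 12 other microtubule genes in each direction. With an intensity trend limma called 0 other microtubule genes higher and 21 features lower, and Mapre3 and Brsk2 had an adjusted p of 0.0507 and 0.0591. With a trend and robust variances 2 other microtubule genes were called lower, and 2 higher (Mapre3 and Brsk2). With features averaged per gene, 4 other microtubule genes were called higher and 51 genes lower. The cause of these shifts was not tested.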
